A study of Arabidopsis thaliana with 6 samples.

Results

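The Aux/IAA genes IAA20, IAA29 and IAA30, of auxin signalling, and the YUCCA genes YUC2 and YUC6, of auxin synthesis, were followed in 2 populations of sorted Arabidopsis thaliana root cells. They were matched by symbol, each had 1 probe set naming it alone, and they are 5 of the 13356 genes that could be named on these arrays. Cells with WOX5::GFP were compared with cells with pTMO5::GFP, both sorted by fluorescence from roots of Col-0 seedlings grown on standard media for 5 days, with 3 arrays of total RNA each. WOX5 is a homeobox gene active in the quiescent centre, a few rarely dividing cells around which the root stem cells lie, and TMO5 is the gene of a basic helix-loop-helix factor of young xylem, so each population holds whatever cells the reporter's promoter marked. The sample descriptions call the WOX5 cells quiescent centre and the TMO5 cells xylem, the cell type tag has the words the other way round, and the groups are named here by reporter. Whether the 3 samples of a group were grown separately is not stated, so the p-values rest on a spread between arrays that may be technical.

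Auxin acts by destroying repressors. Aux/IAA proteins bind auxin response factors and bring in TOPLESS corepressors, and auxin glues most of them through a short degron to TIR1/AFB receptors, which mark them for degradation. IAA20 and IAA30 lack that conserved degron, so their proteins persist in the presence of auxin, and both genes are known from xylem patterning as targets of the response factor MONOPTEROS, which also activates TMO5. IAA29 is known in shoots as a target of the light-regulated PIF factors. YUCCA enzymes are flavin monooxygenases that carry out the last step of auxin synthesis, turning indole-3-pyruvate into indole-3-acetic acid. YUC2 and YUC6 are best known from leaves and flowers, whereas other members of the family supply most of the auxin made in roots.

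Control probe sets differed between the groups, and among the hybridisation controls the faintest differed most. Values are intensities on a linear scale, and the background was taken from 27 probe sets for bacterial transcripts that had not been spiked in. The 95th percentile of their geometric means was 30.8 in WOX5 and 23.4 in TMO5 arrays. A gene is called within background where its geometric mean over a group's 3 arrays lies at or under that level. The bacterial hybridisation control bioB, the faintest of its kind, averaged 32.6, 35.2 and 32.5 across WOX5 arrays and 376, 389 and 397 across TMO5 arrays. The brightest one, cre, ran from 10077 to 11300 on WOX5 arrays and from 14747 to 15903 on TMO5 arrays. The gap was thus widest for the faintest hybridisation control. The ratio of 3′ to 5′ signal of GAPDH was 1.92 to 2.005 on WOX5 and 3.58 to 3.79 on TMO5 arrays. That of Actin did not follow it, at 18.2, 27.1 and 30.3 on WOX5 and 19.3, 16.6 and 17.2 on TMO5 arrays. Each reporter had its own arrays, so the handling of the arrays and the cells' identity cannot be told apart. The part of these control differences in the results was not tested.

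The populations were set against cell type markers. Of 7 listed markers of the quiescent centre 4 had a named probe set (AGL42, JKD, BRL1 and ACR4), and their summed intensity was 782 to 1134 on WOX5 arrays and 72.2 to 109 on TMO5 arrays. All 4 were higher in WOX5 cells. Of 11 xylem markers only LHW and PHV had a named probe set, with sums of 873 to 1213 on WOX5 and 1206 to 1238 on TMO5 arrays. PHV was lower in WOX5 cells, and LHW did not pass. OPS of the phloem (29.9 to 63.0 on WOX5 and 56.3 to 72.4 on TMO5 arrays) and the root hair expansins EXPA7 and EXPA18 (summed 96.2 to 135 on WOX5 and 149 to 349 on TMO5 arrays) did not pass. The listed endodermis, cortex and root cap markers, and WOX5 and TMO5 themselves, had no probe set named here by the same matching. The markers that passed follow the sample titles and descriptions, and go against the words in the cell type tag. On the xylem side that is PHV alone, and the lists were chosen with earlier results of these data known.

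The comparison of WOX5 with TMO5 cells asks which of these auxin genes differ between the stem cell niche and young xylem. IAA20 was higher in WOX5 cells by 2.15-fold, and YUC2 was lower by 1.93-fold. IAA29 was lower by at least 7.49-fold, a bound from group means against background that leaves out the spread between arrays. IAA30 and YUC6 did not pass the threshold of an adjusted p under 0.05. In all, 1 member was higher and 2 were lower, where 23.8% of the 22746 probe sets tested passed, 14.3% as higher and 9.49% as lower. The 5 genes were chosen with earlier results known, so nothing is read from their share. The median log2 difference, WOX5 minus TMO5, was -0.95 over the 5 members and 0.03 over all probe sets. In sorted bulk samples, fewer expressing cells and less RNA per cell cannot be told apart.

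**Figure D1:**
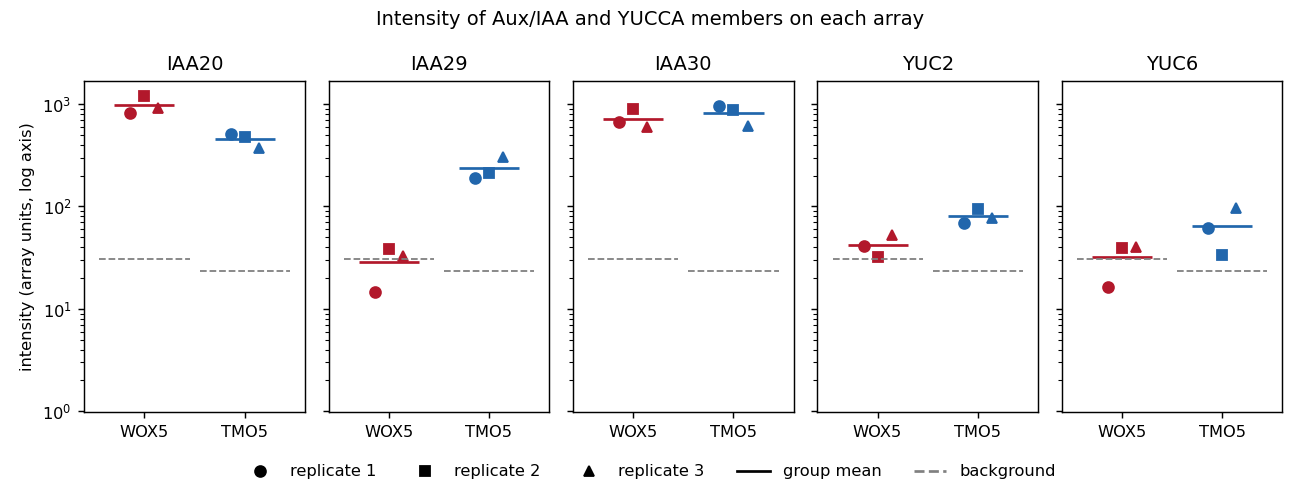
Intensity of IAA20, IAA29, IAA30, YUC2 and YUC6 on each array (log axis, array units), with WOX5 arrays on the left and TMO5 arrays on the right of each panel. Points are single arrays by replicate number, solid bars are arithmetic means of 3 arrays and dashed bars the background of each group, 30.8 in WOX5 and 23.4 in TMO5. The groups separate for IAA20, IAA29 and YUC2 and overlap for IAA30 and YUC6. They separate for 46.8% of all probe sets tested.

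IAA20 (AT2G46990) was well above background in both populations. Its intensity was 816, 1193 and 909 in the WOX5 samples and 506, 473 and 372 in the TMO5 samples. Every WOX5 array lay above every TMO5 array, with replicate 2 the brightest of the WOX5 arrays. The groups did not overlap, in either direction, for 46.8% of all probe sets tested. The means were 973 ± 196 in WOX5 and 450 ± 70.1 in TMO5 cells (SD, n = 3), a log2 difference of 1.10 ± 0.22 (SE; limma adjusted p = 0.020) with a 95% interval from 0.56 to 1.65. A larger rise was measured for 16.0% of probe sets. The call did not hold without WOX5 replicate 3 (adjusted p = 0.055) or without TMO5 replicates 2 or 3 (adjusted p = 0.063 for each). Without WOX5 replicate 2 the log2 difference was 0.95 and the adjusted p 0.036.

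IAA30 (AT3G62100), which shares with IAA20 the missing degron and the link to MONOPTEROS, showed no such separation. It stood at 666, 898 and 590 in the WOX5 samples and at 955, 872 and 610 in the TMO5 samples. The ranges overlapped almost fully, and the spread between arrays of a group exceeded the gap between groups. The means were 718 ± 161 in WOX5 and 812 ± 180 in TMO5 cells (SD, n = 3). The log2 difference was -0.18 ± 0.26 (SE; limma adjusted p = 0.66), and its 95% interval reached from -0.82 to 0.47, that is from 0.567 to 1.38 times the TMO5 level. A difference as large as that of IAA20 lies outside this interval in the rising direction, while a fall of up to 0.82 on the log2 scale does not.

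The pair can be set against each other within each array, where a common scaling factor cancels. The ratio of IAA20 to IAA30 signal was 1.23, 1.33 and 1.54 in the WOX5 samples and 0.530, 0.542 and 0.609 in the TMO5 samples. The sizes of these ratios depend on the probes and say nothing about the number of transcripts, and only their difference between groups is read here. On the log2 scale the mean ratio was 0.44 ± 0.17 in WOX5 and -0.84 ± 0.11 in TMO5 cells (SD, n = 3), a 2.43-fold shift, and the groups did not overlap. An exact two-sided permutation test gave p = 0.1, the smallest that 3 arrays against 3 allow.

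IAA29 (AT4G32280) had the largest difference of the 5 members. It stood at 14.5, 38.4 and 32.5 in the WOX5 samples and at 191, 212 and 303 in the TMO5 samples. Every TMO5 array was far brighter than every WOX5 array, and the WOX5 values scattered around the background of 30.8. The means were 28.5 ± 12.5 in WOX5 and 235 ± 59.9 in TMO5 cells (SD, n = 3). Because the WOX5 geometric mean of 26.2 lay within background, the fall is given as a bound against that level, at least 7.49-fold (limma adjusted p = 0.0063). This bound takes group means and leaves out the spread between arrays, and 2 of the 3 WOX5 arrays lay above background. The measured log2 difference was -3.14 ± 0.42 (SE), with a 95% interval from -4.19 to -2.09. Without WOX5 replicate 1, the dimmest array, the measured fall was 6.53-fold. The call held when any 1 of the 6 arrays was left out, with adjusted p from 0.012 to 0.027. The faint control bioB was also much dimmer on the WOX5 arrays, as given above. Its part in this fall was not tested, nor its part in those of YUC2, IAA31 and IAA18 given below.

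Of the enzymes, YUC2 (AT4G13260) was dim in both populations but above background in each. It stood at 41.2, 32.0 and 52.5 in the WOX5 samples and at 68.9, 93.4 and 76.9 in the TMO5 samples. The groups did not overlap, as for 46.8% of all probe sets tested, with WOX5 replicate 2 the dimmest array. The means were 41.9 ± 10.3 in WOX5 and 79.7 ± 12.5 in TMO5 cells (SD, n = 3), a log2 difference of -0.95 ± 0.24 (SE; limma adjusted p = 0.042) with a 95% interval from -1.54 to -0.35. A larger fall was measured for 10.6% of probe sets. This call lay close to the threshold. It held without WOX5 replicate 3 (adjusted p = 0.044) and was lost without any other single array, with adjusted p of 0.10 and 0.070 without WOX5 replicates 1 and 2, and of 0.078, 0.13 and 0.10 without TMO5 replicates 1, 2 and 3.

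YUC6 (AT5G25620) scattered more than YUC2. It stood at 16.2, 39.3 and 39.8 in the WOX5 samples and at 61.8, 33.8 and 97.0 in the TMO5 samples. TMO5 replicate 2 fell among the WOX5 values, so the groups overlapped. The means were 31.8 ± 13.5 in WOX5 and 64.2 ± 31.7 in TMO5 cells (SD, n = 3). Although 2 of the 3 WOX5 arrays lay above background, the WOX5 geometric mean of 29.4 was within it. The log2 difference of -0.998 ± 0.53 (SE; limma adjusted p = 0.23) rests on that WOX5 level and is poorly measured, with a 95% interval from -2.32 to 0.32. The ratio of YUC2 to YUC6 signal was 2.54, 0.814 and 1.32 in the WOX5 samples and 1.11, 2.76 and 0.794 in the TMO5 samples. These ratios overlapped fully (exact two-sided permutation p = 0.9), and with this scatter an unequal change of the enzymes was not detectable.

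Across the 10 possible pairs of members, the within-array ratios of 7 did not overlap between groups, where 39.5% of all pairs of named genes did not. These were the 4 pairs with IAA20 and the 3 remaining pairs with IAA29, while the pairs among IAA30, YUC2 and YUC6 overlapped. IAA29 and YUC6 lay within background in WOX5 cells, so the sizes of ratios that hold either are poorly measured. Of the 7 pairs, IAA20 with IAA30 and IAA20 with YUC2 were above background on both sides. The ratio of IAA20 to YUC2 was 19.8, 37.3 and 17.3 in the WOX5 samples and 7.36, 5.06 and 4.83 in the TMO5 samples. Each of the 7 pairs had an exact permutation p of 0.1, the smallest possible, and 0.14 after Benjamini-Hochberg adjustment over the 10 pairs, so none could pass. The pairs share genes and are not independent, and the members were chosen with earlier results known, so nothing is read from the count.

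**Figure D2:**
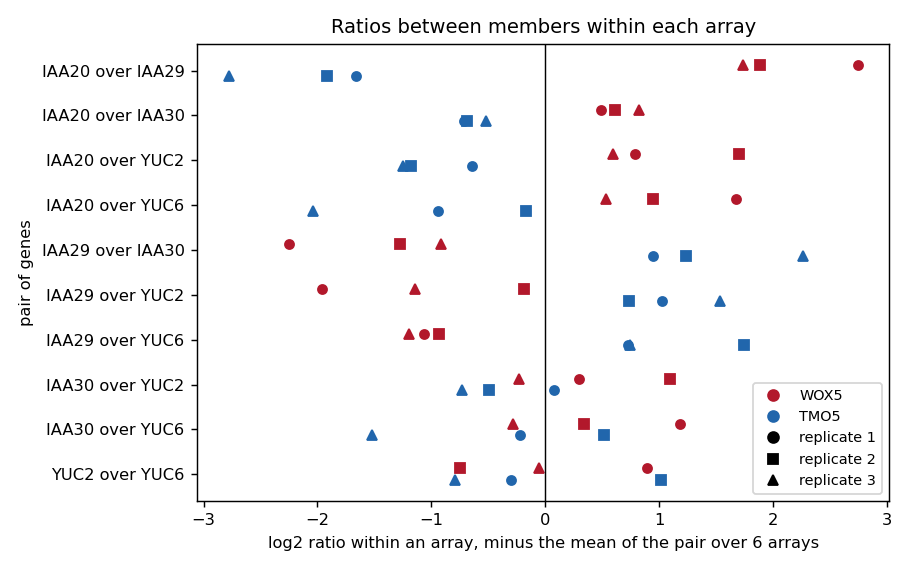
Log2 ratio between each pair of members within an array, minus the mean of that pair over the 6 arrays, with WOX5 arrays in red and TMO5 arrays in blue and replicate numbers as symbols. The colours separate in the 7 pairs that hold IAA20 or IAA29 and mix in the 3 pairs among IAA30, YUC2 and YUC6.

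The rest of both families gives the setting. Of 29 listed Aux/IAA genes 7 had a named probe set, and in WOX5 cells 2 were higher and 3 lower. Of all probe sets tested, 14.3% passed as higher and 9.49% as lower. The 7 Aux/IAA genes had a median log2 difference of -0.18. Of 11 YUCCA genes 4 had a named probe set, and YUC2 was the one that passed. YUC1, YUC3, YUC5, YUC7, YUC8, YUC9 and YUC10 had none. The YUCCA median of -1.11 lies between the values of YUC6 (-0.998) and YUC4 (-1.21). YUC4 and YUC11 lay within background in both groups, and with low values raised to the 20th percentile the median was -0.48. The groups did not overlap for 5 of the 7 Aux/IAA and 1 of the 4 YUCCA genes, against 46.8% of all probe sets tested. No gene of the other auxin lists (the TAA1 family, TIR1/AFB receptors, auxin response factors, TOPLESS corepressors, and PIN and AUX1/LAX transporters) had a probe set named here. Thus 11 of 81 listed auxin genes had a named probe set and are called measured, 2 of them higher and 4 lower. The lists were chosen with earlier results known, so nothing is read from these counts. Of the probe sets tested, 503 named several genes and 8730 none. The other listed genes may lie among those, so they are unnamed here rather than known to be absent from the arrays.

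IAA33 (AT5G57420), an atypical Aux/IAA gene whose protein also lacks the degron, had the largest rise of the 11. It stood at 1095, 2173 and 1370 in the WOX5 samples and at 60.1, 96.5 and 86.8 in the TMO5 samples. All values were above background and the groups lay far apart, with WOX5 replicate 2 the brightest array. The difference was 18.6-fold, or 4.22 ± 0.33 on the log2 scale (SE; limma adjusted p = 0.0015), and 3.94 without WOX5 replicate 2. A larger rise was measured for 0.690% of probe sets.

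IAA31 (AT3G17600), a close relative of IAA20 and IAA30 with an imperfect degron, went the other way. It stood at 12.2, 13.5 and 14.4 in the WOX5 samples and at 93.8, 101 and 69.6 in the TMO5 samples. All WOX5 values were within background, so the fall is given as at least 2.82-fold (limma adjusted p = 0.0014). IAA18 (AT1G51950), a family member with the canonical degron known from lateral root formation, was 2.34-fold lower, at 63.8 ± 2.58 in WOX5 and 149 ± 8.68 in TMO5 cells (SD, n = 3), with a limma adjusted p of 0.0039. The calls of IAA18, IAA31 and IAA33 held without any 1 array. Among the measured genes whose proteins lack or only partly keep the degron, IAA20 and IAA33 were thus higher, IAA31 was lower, and IAA30 and IAA34 did not pass.

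IAA34, YUC4 and YUC11 lay within background in both groups, so no fold is given for them. YUC4, which acts with other YUCCA genes in leaves and flowers, had 3.35, 8.35 and 2.69 on WOX5 and 7.71, 6.30 and 19.3 on TMO5 arrays. YUC11, known from seeds, was as dim, at 2.31 to 10.4 on WOX5 and 5.56 to 15.5 on TMO5 arrays. IAA34 was at 18.6 to 35.2 on WOX5 and 10.99 to 27.2 on TMO5 arrays. At this signal, a difference in these genes was not detectable.

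**Figure D3:**
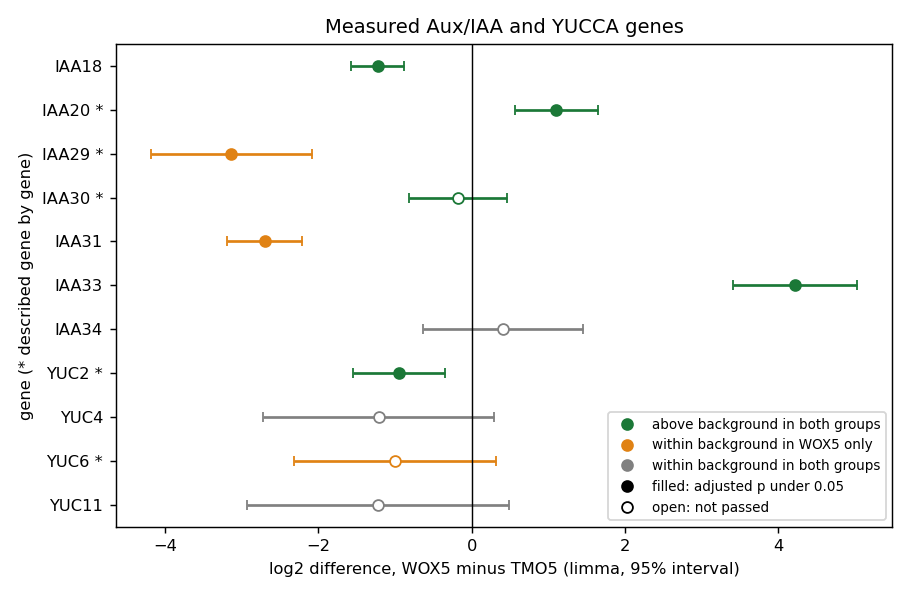
Log2 difference, WOX5 minus TMO5, with the 95% interval from limma, for the 7 measured Aux/IAA and 4 measured YUCCA genes. Filled points passed an adjusted p under 0.05, and colours mark background. IAA33 lies farthest to the right at 4.22 and IAA29 farthest to the left at -3.14, and the grey genes are within background in both groups.

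Genes with the most similar profile were sought among 1258 other genes with a symbol and a geometric mean above background in either group or both. The nearest genes had the smallest root mean square difference of log2 values over the 6 arrays, after each gene was centred on its own mean. For IAA20 these were UBC28, a ubiquitin-conjugating enzyme (0.104), CcdA, a thylakoid protein (0.107), and NAC014, a NAC transcription factor (0.112). UBC28 averaged 4847 ± 799 in WOX5 and 2135 ± 221 in TMO5 cells (SD, n = 3), and like IAA20 it was brightest on WOX5 replicate 2 and dimmest on TMO5 replicate 3. IAA30 was closest to BGLU44, a beta-glucosidase (0.129), SWEET1, a sugar transporter (0.147), and NRPB6A, an RNA polymerase subunit (0.154).

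The nearest genes of IAA29 and YUC6 lay farther off on this distance. The distance is not scaled to a gene's own spread, so a looser match is not read from it. Both members lay within background in WOX5 cells. For IAA29 the nearest were TRM15 (0.317), SQN, a cyclophilin (0.389), and NET1B, an actin-binding protein (0.407). TRM15 averaged 50.7 ± 15.8 in WOX5 and 527 ± 53.9 in TMO5 cells (SD, n = 3). YUC2 was nearest to ULP1B (0.132), ZCW7 (0.144) and NRPB12, an RNA polymerase subunit (0.150), of which NRPB12 averaged 1311 ± 196 in WOX5 and 2588 ± 163 in TMO5 cells (SD, n = 3). YUC6 was nearest to the MADS-box gene AGL101 (0.376), the tetraspanin TET14 (0.383) and LPA1 (0.451). Like YUC6, AGL101 and TET14 lay within background in WOX5 cells, at geometric means of 20.1 and 20.7, so their likeness there is poorly measured. The likeness is a description of these 6 arrays.

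Centring the arrays on their medians moved every member's log2 difference by the same -0.378, while quantile normalization moved the members unequally. Over all probe sets the median log2 difference was 0.03 as deposited, -0.14 after quantile normalization and -0.35 after centring each array on its median. The share of all calls that were higher in WOX5 cells was 60.1%, 47.2% and 29.7% in the same order. Under these scalings IAA20 differed by 1.10, 1.11 and 0.73, IAA29 by -3.14, -3.33 and -3.51, and YUC2 by -0.95, -1.23 and -1.32. The calls of these 3 genes held under all of them, with an adjusted p of 0.044 for IAA20 on centred arrays. IAA30 was at -0.18, -0.14 and -0.55 and YUC6 at -0.998, -1.21 and -1.38, and neither passed under any of them. No member changed sign.

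**Figure D4:**
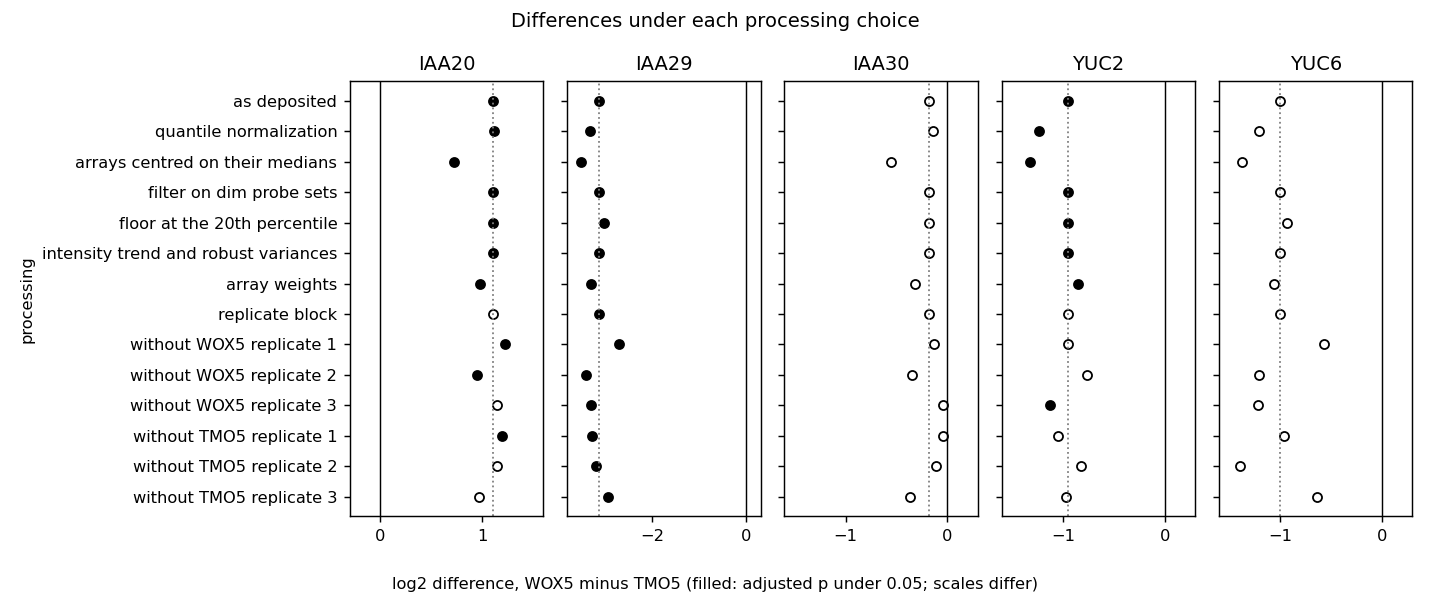
Log2 difference, WOX5 minus TMO5, of each member under the deposited scale and each alternative (rows), with filled points where the adjusted p was under 0.05 and a dotted line at the value as deposited. The panels have different horizontal scales. IAA29 is filled in every row, IAA20 and YUC2 are open in some, and IAA30 and YUC6 are open in all.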

How the data were processed

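RNA was labelled with biotin for Affymetrix arrays, per the labels' protocols in 1 or 2 cycles. The cycles used for each array and the software were not given in the sources used here. Linear intensity values were deposited by the authors for 22810 probe sets, each array having a mean of 250 after 2% trimming at each end. Values under 1 were raised to 1 (1036 values) and log2 was taken, and 64 control probe sets were set aside. WOX5 was compared with TMO5 over 22746 probe sets in limma 3.58.1 (R 4.3.3; lmFit, eBayes, Benjamini-Hochberg, threshold 0.05), with no filter or further normalization. The fit was tested on simulated data. A fold is 2 to the power of the log2 difference.

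Genes were named from the platform annotation, updated through the TAIR10.1 gene table: 13513 probe sets named 1 gene, 503 several and 8730 none. Where a gene had several, the probe set with the highest mean was used. Named are the 5 members, of each list up to 2 rises and 2 falls that passed, and the 3 genes nearest to each member. IAA18, IAA34, YUC4 and YUC11 were named after their values were seen. Members and lists were chosen with earlier results of these data known. Alternatives in scaling, filter, floor, variance model, weights, replicate block and arrays used were run. Arrays have no read depth, and their number limits the precision.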

Additional observations from a re-analysis of the deposited data

How the results depend on the processing

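IAA29 kept its fall, and IAA30 and YUC6 stayed short of the threshold with the same sign, under all alternatives run: quantile normalization, centred arrays, a filter on the dimmest 1/3 of probe sets, a floor at the 20th percentile, an intensity trend with robust variances, array weights, a replicate block and each array left out. IAA20 and YUC2 lost their calls with a replicate block (1.10, adjusted p = 0.070, and -0.95, adjusted p = 0.12) and when some single arrays were left out. Over all 6 fits with 1 array left out, calls kept or lost, their log2 differences ran from 0.95 to 1.22 and from -1.12 to -0.77. The cause was not tested. Deviations of same-numbered arrays from their group means correlated at -0.05, 0.02 and 0.02, and those of differently numbered arrays at -0.05 to 0.03. No pairing by number was thus seen in these values, which cannot tell whether same-numbered samples were prepared together. With the block, 0 members were higher and 1 lower, 1 Aux/IAA gene and 1 gene of the auxin lists together were higher, 0 YUCCA genes were lower, and 1719 probe sets were higher and 551 lower, against 3252 and 2159 as deposited. With 1 array left out, members higher numbered 0 to 1 and lower 1 to 2, Aux/IAA genes higher 1 to 2, YUCCA genes lower 0 to 1, genes of all auxin lists higher 1 to 2, and probe sets higher 2101 to 2854 and lower 726 to 2000. Probe sets lower numbered 5297 with centred arrays, 3245 with the filter and 3314 with the trend. The dimmest probe set per gene gave the same values, since each measured auxin gene had 1. Signal near background limits what can be said of YUC6, IAA34, YUC4 and YUC11. It also limits the sizes given for IAA29 and IAA31, within background in WOX5 cells, and for YUC2, which was dim in both groups.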
